A study of Mus musculus with 2 samples.

Results

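The genes described here encode structural and surface proteins of differentiated retinal ganglion cells, the output neurons of the retina. They are the 3 neurofilament genes Nefl, Nefm and Nefh, the related intermediate filament gene Ina, the axon growth genes Gap43, Stmn2 and Nrn1, and the ganglion cell markers Sncg, Thy1 and Rbpms. The 10 genes were taken by name from the 21887 protein-coding genes on chromosomes 1 to 19, X and Y, and every deposited interval that overlapped a gene span extended by 50 kb to each side was described. Occupancy of ISL1 was measured by CUT&Tag, an assay in which an antibody bound in nuclei directs the Tn5 transposase to tag nearby DNA, in wild-type E13.5 mouse retina. The series has 1 group of 2 replicates, with no mutant retina and no control antibody analysed here, so no contrast was tested. The labels give rabbit antibodies against ISL1 from a pair of suppliers without saying which replicate received which, and are silent on whether separate litters were used, so any spread between the replicates may be technical.

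ISL1 is a LIM-homeodomain transcription factor that, after progenitors leave the cell cycle, works with POU4F2 in the differentiation of ganglion cells. Ganglion cells then extend long axons that form the optic nerve. Neurofilament subunits and alpha-internexin (the Ina product) assemble into the intermediate filaments of these axons. GAP43, stathmin 2 and neuritin act in growing neurites, and genes of this kind are among those that a ganglion cell regulator could bind directly, the question the series addresses.

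Each replicate was deposited as a list of intervals with a total signal, the coverage summed over the bases of the interval, and a maximum signal, the highest coverage in it. Replicate 1 held 123923 intervals on the chromosomes used and replicate 2 held 158881. The files hold no library depth, so signals were read within a list and set side by side without a ratio between replicates. Where an interval of each list overlapped by 1 bp or more, the joined region was counted as a shared peak. An interval was called uneven when its total signal was below 95% of its width times its maximum. The remaining intervals, called flat here, have the same or nearly the same coverage at every base. Across the genome 11.5% (95% Wilson interval 11.3 to 11.6) of the intervals of replicate 1 and 8.91% (8.77 to 9.05) of those of replicate 2 were shared, which gave 13704 shared peaks. These intervals cover counting error only. Whether repeated reads of single fragments contribute to the signals was not tested.

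Shared ISL1 peaks lay within 50 kb of 7 of the 10 genes, Nefl, Nefm, Gap43, Stmn2, Nrn1, Sncg and Rbpms, and were not found for Nefh, Ina and Thy1. The same call was made for 55.4% of all protein-coding genes, so a shared peak somewhere in the window is common. The 7 genes shared 13 distinct peaks. The highest signals common to both replicates were at the end of Nefm, where the maximum was 46 in replicate 1 and 32 in replicate 2, and beside Nrn1, where it was 26 in each. When the overlap had to cover 50% of both intervals, 4 of the 10 genes had a shared peak, and those of Nefm and Nrn1 no longer counted. That rule also lowered the shared peaks genome-wide, from 13704 to 5928, and the share of all genes under it is not given here. No gene of the group had an interval pair that was uneven in both lists, a call made for 7.53% of all genes.

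**Figure D1:**
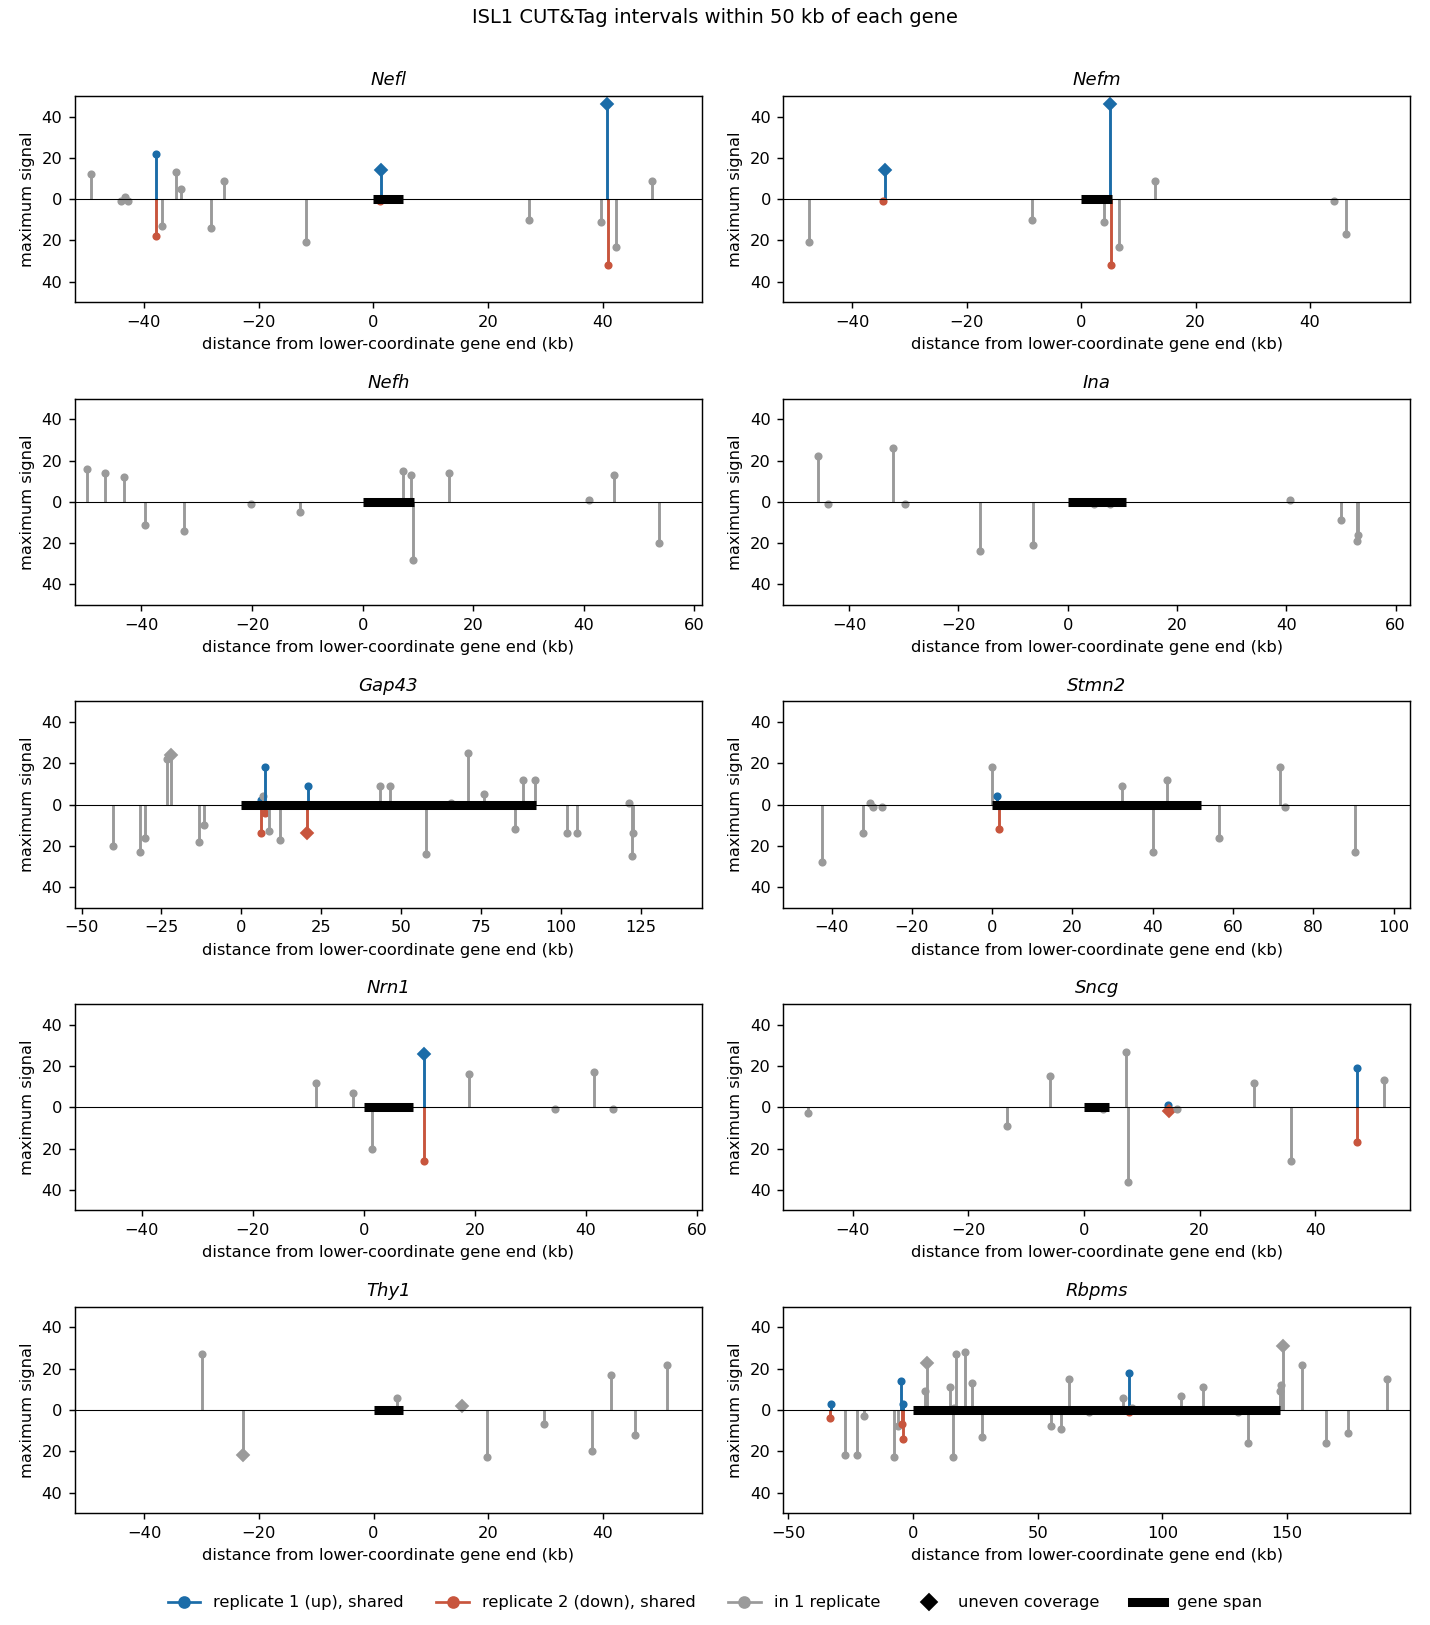
Intervals around each of the 10 genes, drawn at their midpoints. The horizontal axis is the distance from the lower-coordinate end of the gene in kb, and the vertical axis is the maximum signal, upward for replicate 1 and downward for replicate 2; coloured intervals overlapped the other list, grey ones did not, diamonds are uneven and the black bar is the gene span. The tallest coloured pair, at 46 and 32, stands at the end of Nefm and appears again in the window of Nefl.

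Nefm encodes the medium neurofilament subunit and occupies chromosome 14, 68119545 to 68125004, in mm10. A shared peak at 68124261 to 68125079 covered its higher-coordinate end, with the midpoint 334 bp inside the gene. In replicate 1 the interval was 819 bp wide, uneven, and had a maximum signal of 46, and its total signal was at percentile 98.9 of that list. In replicate 2 the interval was 174 bp wide, lay within that of replicate 1, and was flat with a maximum of 32, at percentile 81.3. Both replicates thus had an interval at the same end of the gene, but coverage was uneven in replicate 1 only. The overlap made up 21.2% of the wider interval. A shared peak at a gene end whose lower maximum reached 32 was found for 0.694% of all protein-coding genes. One anywhere within 50 kb was found for 2.51%. The level of 32 was the lower maximum of this peak itself, the highest near any of the genes described. These shares therefore give its place among all genes and do not test whether it is unusual. The levels used below for Nefl, Nrn1 and Sncg were set in the same way, each from its own peak. Replicate 2 had another pair of flat intervals close by, at 68125887 to 68126372 with a maximum of 23 and at 68123328 to 68123813 with 11. Neither overlapped an interval of replicate 1.

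Nefl, the light subunit and the core of the neurofilament polymer, lies 30449 bp from Nefm on the same chromosome (68083863 to 68089095). The windows of the pair overlap, so the Nefm peak also counts in the window of Nefl and the genes are not independent. Nefl itself had a shared peak at 68045849 to 68046248, 37815 bp from the gene, where the maxima were 22 and 18. Both intervals of this peak were flat. Peaks with a lower maximum of at least 18, the value of this peak, were found within 50 kb of 13.9% of all genes. A further shared peak lay inside Nefl at 68084673 to 68085795, within 1 kb of its lower-coordinate end, where the interval of replicate 1 was uneven with a maximum of 14. The interval of replicate 2 there had a maximum of only 1, at percentile 18.2 of its list, so this site rests on replicate 1.

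Nefh, the heavy subunit (chromosome 11, 4938754 to 4948064), had no shared peak. Both replicates nevertheless had an interval at its higher-coordinate end. The interval of replicate 1, at 4947398 to 4947600, had a maximum of 13, and that of replicate 2, at 4947685 to 4948117, had 28. These intervals were separated by 84 bp and did not overlap, and both were flat. The end of Nefh overlaps the neighbouring gene Ap1b1 (4947320 to 5042794), so the intervals belong to both gene ends. An interval with a maximum of 10 or more at a gene end in each replicate, shared or not, was present for Nefm and Nefh, 2 of the 10 genes, against 11.7% of all genes.

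Ina, which encodes alpha-internexin (chromosome 19, 47014681 to 47025327, where its start overlaps the end of Nt5c2), had 3 intervals in replicate 1 and 9 in replicate 2, and no overlap between them. The gene body held 0 intervals in replicate 1 and 2 in replicate 2, each with a maximum of 1. The highest maximum in its window was 26 in replicate 1, 31884 bp outside the gene, and 24 in replicate 2, 15941 bp outside it. Of the 4 filament genes, signal in both replicates at a gene end was therefore seen for Nefm, Nefh and, weakly in replicate 2, Nefl.

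The table of RefSeq promoters used here (GRCm38.p6) held 2 of the 10 genes, Ina and Sncg. Their 250 bases before the start site are shown because no other promoter of the 10 genes was available. Neither promoter overlapped an interval in either replicate. The sequences run 5′ to 3′ on the strand of the gene, at chr19:47014431-47014680 on the plus strand for Ina and chr14:34374670-34374919 on the minus strand for Sncg. Capitals mark TAAT on either strand, the core of many homeodomain binding sites.
Ina: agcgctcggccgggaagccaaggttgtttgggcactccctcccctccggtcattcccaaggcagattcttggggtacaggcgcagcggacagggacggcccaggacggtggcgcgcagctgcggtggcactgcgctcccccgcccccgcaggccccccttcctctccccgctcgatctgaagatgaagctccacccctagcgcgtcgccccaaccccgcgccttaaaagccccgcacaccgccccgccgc
Sncg: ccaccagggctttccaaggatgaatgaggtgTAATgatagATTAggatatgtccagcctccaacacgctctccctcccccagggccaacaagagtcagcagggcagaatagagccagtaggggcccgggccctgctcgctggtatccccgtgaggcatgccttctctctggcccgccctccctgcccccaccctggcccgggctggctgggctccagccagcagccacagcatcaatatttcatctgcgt

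The Ina promoter had 0 matches to TAAT and the Sncg promoter had 2, where 54.9% of 32851 promoters of this length held at least 1. CANNTG, the E-box read by basic helix-loop-helix factors, occurred once in each and in 66.2% of all promoters. Neither promoter matched the longer motifs, which all contain TAAT and were also searched on both strands. CTAATG was present in 6.36% of promoters. The share with TAATTA was 4.84%. For ATTAAT it was 4.39%. The bases G and C made up 70.8% of the Ina sequence and 61.6% of the Sncg sequence, against a median of 52.4% over all promoters. The nearest interval to the Ina promoter was 31513 bp away in replicate 1 and 4659 bp in replicate 2, and that to the Sncg promoter 2481 bp and 911 bp.

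Nrn1 encodes neuritin, a membrane-anchored protein that promotes neurite outgrowth (chromosome 13, 36725622 to 36734477). Its single shared peak lay at 36736036 to 36736944, with the midpoint 2013 bp beyond the higher-coordinate end of the gene. Its maximum was 26 in either replicate. The interval of replicate 1 was 909 bp wide, uneven and at percentile 99.0 of its list. The interval of replicate 2 was flat, and the overlap made up 30.4% of the wider interval. The peak ranked 704 of 13704 by the mean of its ranks of total signal in both lists. A shared peak within 50 kb with a lower maximum of at least 26, the value of this peak, was found for 5.22% of all genes. No other protein-coding gene lies in this window. Within the gene itself there were 0 intervals in replicate 1 and 1 in replicate 2, with a maximum of 20.

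Gap43 encodes a growth cone phosphoprotein and is long, at 92.1 kb (chromosome 16, 42248552 to 42340651). It had 3 shared peaks, all inside the gene and 6094, 7352 and 20695 bp from its lower-coordinate end. The first had maximum signals of 2 and 14, the second 18 and 4, and the third 9 and 14, in replicates 1 and 2. Each of these sites was lower in 1 replicate than in the other, and at none did both lists reach 10. The highest-ranked interval of replicate 1 in the window, at 42226239 to 42226965, was uneven with a maximum of 24 and at percentile 99.2 of its list. It lay 21950 bp outside the gene, and the nearest interval of replicate 2 was 7544 bp away. At the higher-coordinate end replicate 1 had a flat interval with a maximum of 12 and replicate 2 had none.

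Stmn2 encodes stathmin 2, a microtubule regulator of growing axons (chromosome 3, 8509527 to 8561604). Its shared peak at 8510522 to 8511335 reached within 1 kb of the lower-coordinate end only through the interval of replicate 1. Its maximum was 4 in replicate 1 and 12 in replicate 2, where the interval had its midpoint 1599 bp from that end and lay outside the 1 kb. Both intervals were flat. Replicate 1 also had an interval across that end itself, at 8509497 to 8509612 with a maximum of 18, and the nearest interval of replicate 2 was 1304 bp from it. Stmn2, Nefl and Nefm were the 3 of 10 genes with a shared peak within 1 kb of an end, a call made for 10.4% of all protein-coding genes, although at Stmn2 replicate 2 had 0 intervals that close. This count was 1 with a window of 500 bp and 0 with the 50% overlap. At Nefm alone did both maxima reach 10 at the end, against 6.15% of all genes.

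The markers Sncg, Thy1 and Rbpms had no shared peak at an end. Sncg encodes gamma-synuclein and is a marker of ganglion cells (chromosome 14, 34370274 to 34374669). The stronger of its 2 shared peaks, at 34417331 to 34417751 with maxima of 19 and 17, lay 42872 bp from Sncg and 6480 bp from an end of Bmpr1a, a receptor gene for bone morphogenetic proteins, within that gene. Peaks with a lower maximum of at least 17, the value of this peak, were within 50 kb of 15.8% of all genes. The other, nearest to Mmrn2, had maxima of 1 and 2. Close to Sncg, replicate 1 had an interval at 34377401 to 34377584 with a maximum of 27, and replicate 2 had one at 34377939 to 34378001 with 36, separated by 354 bp. Both lie inside Mmrn2 as well.

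Thy1 encodes a membrane-anchored surface glycoprotein of ganglion cells and other neurons (chromosome 9, 44043384 to 44048579). It had 5 intervals in each replicate and no overlap. A single interval, of replicate 1 with a maximum of 6, lay inside the gene. Both replicates had 1 uneven interval in the window, with maxima of 2 and 22, on opposite sides of the gene.

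Rbpms encodes an RNA-binding protein used as a marker of nearly all ganglion cells, and is the longest of the genes at 147 kb (chromosome 8, 33782643 to 33929922). Its strongest shared peak, at 33777427 to 33779015, joined 2 intervals of each list and had a maximum of 14 in both. Its midpoint was 4422 bp outside Rbpms and 1048 bp from the end of Gtf2e2, a general transcription factor gene, which was nearer. Another, nearest to Smim18, had maxima of 3 and 4. The third lay inside Rbpms with identical ends in both lists (33869285 to 33869504) and maxima of 18 and 1. The higher-coordinate end of Rbpms carried 3 intervals in replicate 1, with maxima of 9, 12 and 31, the last of them uneven and at percentile 94.0. Replicate 2 had none there, and its nearest interval was 11983 bp from the closest of them.

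**Figure D2:**
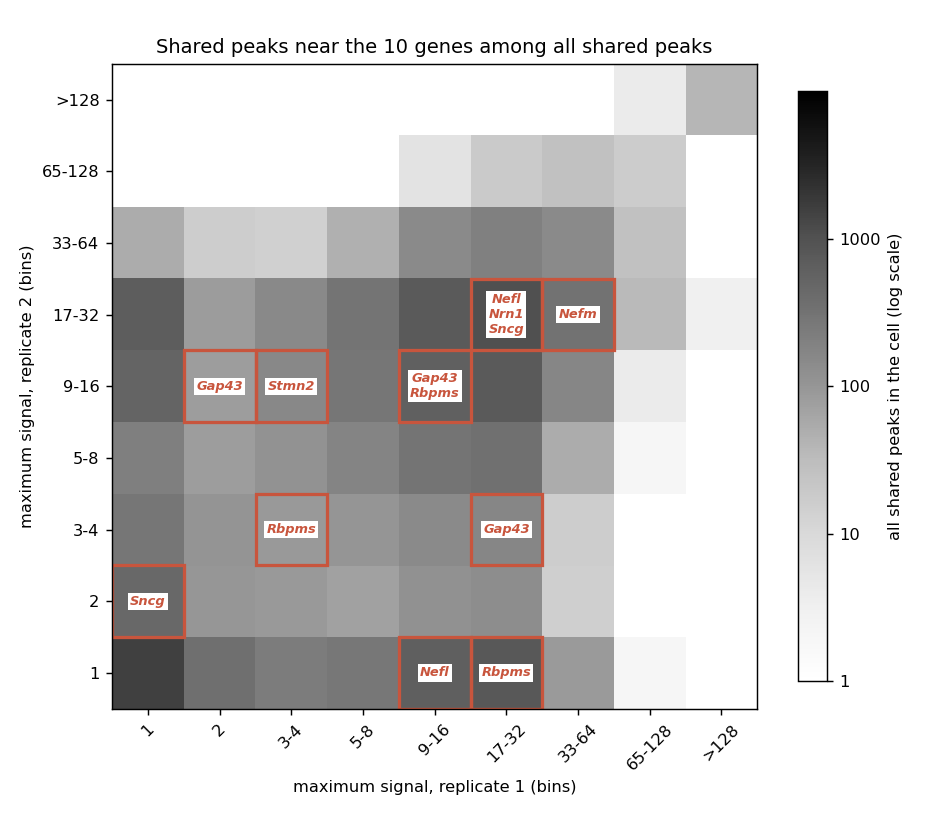
Maximum signal of shared peaks in replicate 1 (horizontal, in bins) and replicate 2 (vertical, in bins). Grey shows how many of all 13704 shared peaks fall in each cell on a log scale, and outlined cells hold the 13 peaks near the 10 genes, named by the nearest gene where that is 1 of the 10 and otherwise by the gene whose window they lie in; Nefm, at 46 and 32, is farthest to the upper right.

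The 13 shared peaks varied widely in signal, as the grid of maximum signals shows. In 5 of the 13 (38.5%) the maximum reached 10 in both lists, a level chosen after the intervals were seen, against 28.5% of all shared peaks. These 5 peaks placed such a signal within 50 kb of Nefl, Nefm, Nrn1, Sncg and Rbpms, 5 of 10 genes, while 27.9% of all genes had one. The same 5 genes had a peak among the 5000 with the best mean rank, called strong here, against 33.1% of all genes. When each peak was given only to the nearest gene, with a limit of 50 kb between midpoint and gene end, 5 of the 10 genes, Nefl, Nefm, Gap43, Stmn2 and Nrn1, kept a shared peak (27.3% of all genes) and 3 kept one with both maxima of at least 10 (11.1% of all genes). Those 3 were Nefl, Nefm and Nrn1. The peak inside Rbpms, 60528 bp from an end, was given to no gene under this limit. In 3 of the 13 peaks the lower maximum was 1.

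Replicates differed at the gene ends. Replicate 1 had an interval within 1 kb of an end for 6 of the 10 genes and replicate 2 for 4, against 38.9% and 38.4% of all genes. With a maximum of at least 10 the counts were 6 and 2, against 29.8% and 27.4%. The genes with such an interval in replicate 1 were Nefl, Nefm, Nefh, Gap43, Stmn2 and Rbpms, and in replicate 2 Nefm and Nefh. Uneven intervals near these genes numbered 7 of 77 intervals in replicate 1 (9.09%, 95% Wilson interval 4.47 to 17.6) and 3 of 88 in replicate 2 (3.41%, 1.17 to 9.55), with 6.01% and 5.79% across the genome. Both genome-wide shares lie inside these intervals. In replicate 1 they lay near 6 of the 10 genes and in replicate 2 near 3, against 39.2% and 40.5% of all genes.

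**Figure D3:**
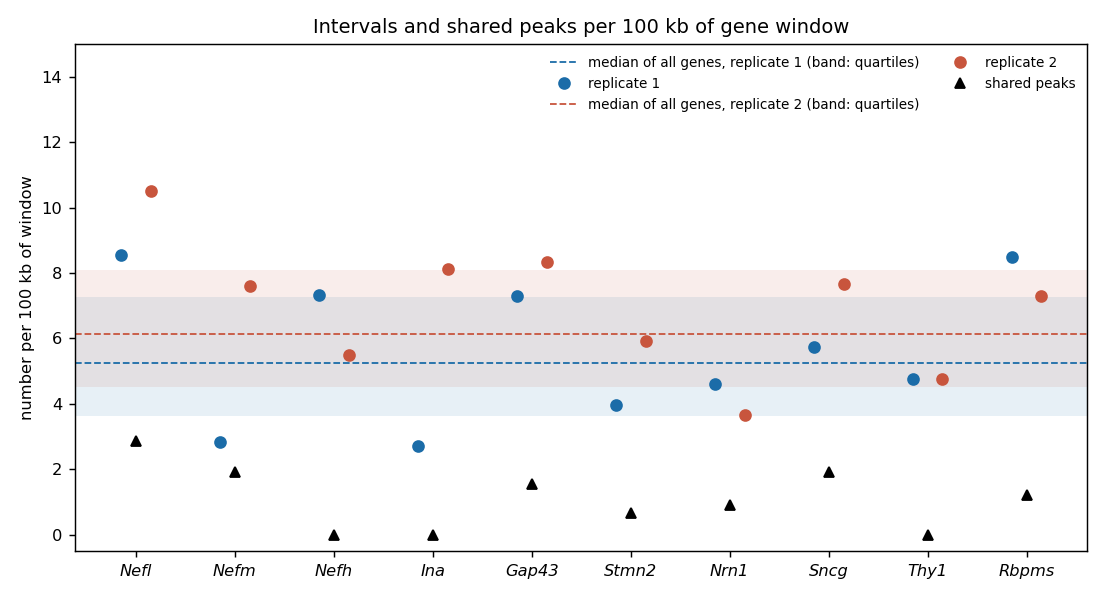
Number of intervals of each replicate (circles) and of shared peaks (triangles) per 100 kb of window for each gene, where a window is the gene span with 50 kb to each side. Dashed lines and bands give the median and quartiles over all 21887 protein-coding genes; Nefl is highest in both replicates, at 8.55 and 10.5, and Nefh, Ina and Thy1 have triangles at 0.

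The number of intervals per length was close to that of other genes. The median over the 10 genes was 5.25 intervals per 100 kb of window in replicate 1 and 7.43 in replicate 2, and over all genes 5.26 (quartiles 3.63 to 7.26) and 6.12 (4.52 to 8.1). Nefl had the most in both replicates, with 8.55 and 10.5. Gap43, with 7.29 and 8.33, was also above the upper quartile in each. Ina had the fewest in replicate 1, with 2.71, and Nrn1 in replicate 2, with 3.67. Shared peaks had a median of 1.07 per 100 kb over the 10 genes and 0.555 (quartiles 0 to 0.967) over all genes. Per window the medians were 1.5 and 1 shared peaks. Peaks where the windows of Nefl and Nefm overlap count for both genes. Of the distinct intervals in these windows, 14 of 77 in replicate 1 (18.2%, 11.2 to 28.2) and 14 of 88 in replicate 2 (15.9%, 9.72 to 25.0) were shared. The genome-wide share of 11.5% lies inside the Wilson interval of replicate 1, and that of 8.91% lies below that of replicate 2. Those shares cover all listed intervals, not windows around genes. The intervals near the 10 genes come from 9 merged windows, and neighbouring ones are not independent. The Wilson intervals may therefore be too narrow, and an excess of sharing near these genes was not tested. No interval in these windows had a maximum above 100, the highest being 46 and 36.

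**Figure D4:**
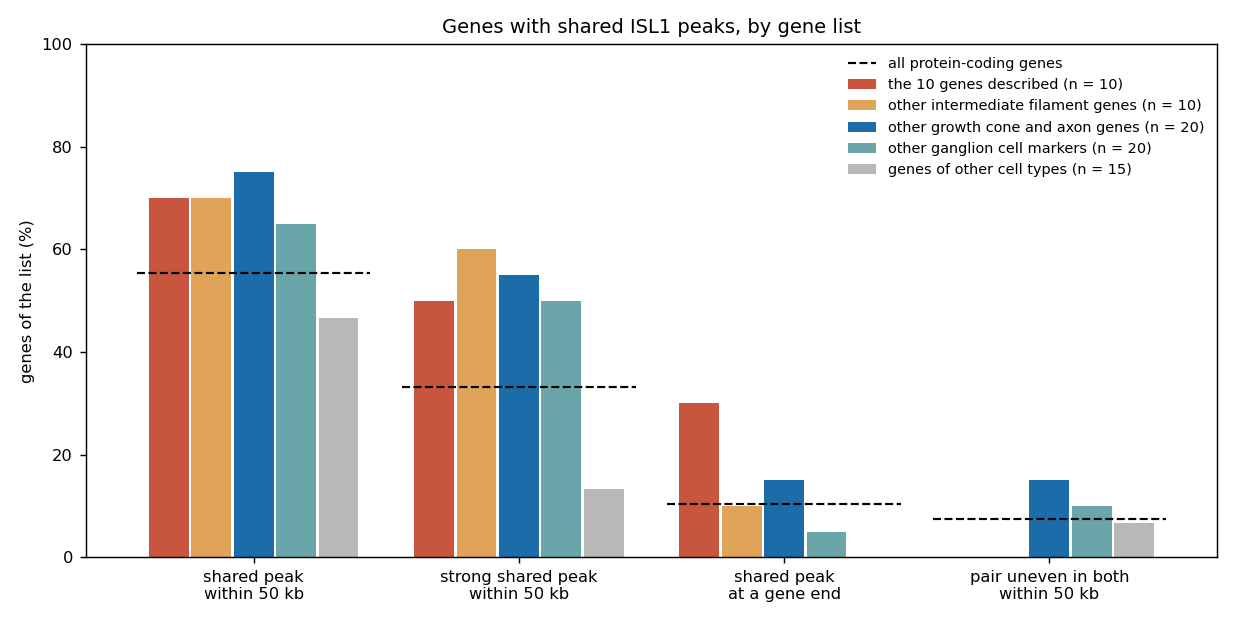
Share of the genes of each list (bars, in percent) with a shared peak within 50 kb, with a strong one, with one within 1 kb of a gene end, and with an interval pair uneven in both lists; dashed lines give the share of all protein-coding genes. The 10 genes described here stand at 70.0%, 50.0%, 30.0% and 0.

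The other genes of these pathways are given by list. Of 10 other intermediate filament genes, 7 had a shared peak within 50 kb, 6 a strong one and 1 a shared peak at an end. That gene was Nes, which encodes nestin, the filament protein of neural progenitors, with maxima of 27 and 19 and a midpoint 238 bp inside the gene. Prph, which encodes the neuronal filament protein peripherin, had a peak with 17 and 22 at 15709 bp, nearer to Troap, and Lmna, a nuclear lamin gene, had one with 17 and 18 at 18115 bp, nearer to Mex3a. Vim, the vimentin gene, had only a peak with a lower maximum of 1.

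Of 20 other genes of the growth cone and axonal cytoskeleton, 15 had a shared peak within 50 kb, 11 a strong one and 3 one at an end. The strongest were near Dpysl2 (35 and 43) and Dpysl3 (31 and 48), which encode collapsin response mediator proteins, and Stmn4 (23 and 25), a relative of Stmn2. Tubb3, a neuronal tubulin gene, had the same lower maximum as Stmn4, 23. The Dpysl2 peak lay inside that gene, 42035 bp from its nearest end and nearer to Pnma2, and was uneven in both lists. The Dpysl3 peak, also uneven in both, lay 41208 bp outside and nearer to Stk32a, and the Stmn4 peak 47000 bp outside and nearer to Trim35. Of 20 other ganglion cell markers, 13 had a shared peak, 10 a strong one and 1, Rbpms2, one at an end. Gng4, a G protein subunit gene, had the highest signal, 238 and 170, at 32903 bp outside the gene, in a peak uneven in both lists. Maxima above 100 are unusual here, since leaving them out lowered the shared peaks genome-wide only from 13704 to 13643. Nrn1l, a relative of Nrn1, had a peak at 5826 bp (30 and 23), nearer to Pskh1. Pairs uneven in both lists lay near 3 of the 20 cytoskeleton genes and 2 of the 20 markers.

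Among 15 genes of liver, muscle, blood, vessels, skin and other cells of the eye, 7 had a shared peak, 2 a strong one (Pecam1 with 20 and 22, and Ptprc with 14 and 21) and 0 one at an end. Tyr, the tyrosinase gene of pigment cells, had a peak with maxima of only 3 and 5, which was uneven in both lists and the only such pair near the 15 genes. The lists differ in gene length, with median windows of 109 kb for the 10 genes, 109 kb for the other filament genes, 150 kb for the cytoskeleton genes, 140 kb for the markers and 126 kb for the last list. No difference between these lists was tested.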

How the data were processed

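ISL1 CUT&Tag libraries of wild-type mouse retina were amplified with 20 PCR cycles per the labels' protocols. The authors deposited 1 interval list per replicate with 6 columns and no header, of which the total and maximum signal were used as deposited, as whole-number coverage. FastQC, Bowtie2, MACS2, SEACR and mm10 are named per the submitters' processing notes, and the column order matches that of SEACR. How these lists were called, at what threshold, against what control and with what treatment of duplicates is not given in the sources used here. Where duplicates are kept, signal also rises with amplification.

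Intervals off chromosomes 1 to 19, X and Y were dropped (640 and 937). Coordinates are 1-based. Genes came from a RefSeq table of GRCm38.p6, which gives spans without strand, so a gene end is either end of the span. Overlaps were computed with numpy 2.4.6 and pandas 2.3.3, and shares carry Wilson intervals from scipy 1.17.1. The procedure was tested on simulated lists. The members and gene lists were chosen with earlier results of these data known. Named were the 10 genes, other genes nearest to a shared peak in their windows, and up to 3 genes per list with the highest lower maximum. One gene that this rule names is not reported here. Ap1b1, Nt5c2, Vim, Tubb3, Rbpms2 and the genes nearest to peaks of the lists were named after their values were seen. No test between groups was possible with 1 group. Alternatives changed the definition of sharing, windows, thresholds and the replicates used.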

Additional observations from a re-analysis of the deposited data

How the results depend on the processing

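Requiring a reciprocal overlap of 50% lowered the genes with a shared peak from 7 to 4, the shared peaks from 13 to 4, the genes with one at an end from 3 to 0, the genes with both maxima of at least 10 from 5 to 2, and the shared part of the intervals, 28 of 165 over both lists, to 4.85%. Centres within 200 bp gave 8 peaks, 1 gene with one at an end and 9.7%. The stronger part of each list, above its median total signal, gave 5 peaks, 1 gene at an end and 10.9%. Genome-wide the shared peaks fell as well, from 13704 to 5928, 9716 and 4056 under these rules, in the order given. The shares of all genes under these rules are not given here, so the lower counts are not particular to the 10 genes. With the gene span alone there were 7 peaks, 1 gene with a strong peak, 1 with both maxima of at least 10, 4 uneven intervals in place of 10, and 23.7%. A window of 20 kb left 3 genes with a strong peak and 3 with both maxima of at least 10, and the nearest gene alone gave 3 and 3. A window of 100 kb gave 17 uneven intervals, and a gene end window of 500 bp gave 1 gene. Intervals up to 500 bp apart, chosen after seeing the data, gave 24.8%. With each replicate alone, intervals at an end were counted for 4 to 6 genes, uneven intervals were 3 to 7 (3 without replicate 1), intervals of any kind lay near 10 genes, strong ones near 4 to 5, and density was 6.06 to 6.92 per 100 kb. The count of genes with a pair uneven in both lists was also 0 with a window of 100 kb and with intervals up to 500 bp apart; most other alternatives could only remove such pairs. The cause of these changes was not tested. The start site alone was not run, since strand was known for 2 of the 10 genes. No paired analysis was possible because the series has 1 group. Depth is unknown, and a site missing from a list may lie below the authors' threshold.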

Other observations

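Several intervals near these genes lay close to an interval of the other replicate without overlapping it. Of the intervals that were not shared, 6 of replicate 1 and 7 of replicate 2 lay within 500 bp of an interval of the other list. They include the end of Nefh, with maxima of 13 and 28 separated by 84 bp, and the site near Sncg and inside Mmrn2, with 27 and 36 separated by 354 bp. In Gap43, an interval of replicate 1 with a maximum of 4 stood 27 bp from an interval of replicate 2 in the cluster of shared peaks near the lower-coordinate end, and in Rbpms intervals with maxima of 1 and 23 were 205 bp apart. When intervals up to 500 bp apart were joined, 8 of the 10 genes had a joined site, 4 of them at an end, and 17 sites were counted in place of 13. Genome-wide the count rose from 13704 to 21836 under the same rule. The share of all genes with a joined site is not given here, so near misses of this kind are not particular to the 10 genes.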
